A study of Mus with 8 samples.

Results

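The genes described here carry out glycolysis, form the hypoxia-inducible factor 1 (HIF1) axis and its targets, bring pyruvate into mitochondria and run the tricarboxylic acid (TCA) cycle. The list held 43 gene symbols, and a gene was taken where the symbol annotated to its probe set was exactly a listed symbol. On this rule 42 of the 43 were found among the 21154 gene symbols tested on the arrays. Eno1, which codes for an enolase of glycolysis, was not taken, because its probe set was annotated to Eno1 and Eno1b together. That shared probe set read 18.01 and 18.06 in BTEE-treated cells, against 17.89 and 17.85 in control cells, at 17 h, and 18.04 and 17.98 in BTEE-treated cells, against 17.93 and 18.03 in control cells, at 6 h.

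The values came from RAW264 cells, an established mouse macrophage-like line made by transformation with Abelson leukemia virus, and from 8 Clariom S mouse arrays in 4 groups of 2. BTEE is an extract in ethanol of the green microalga Botryococcus terribilis. BTEE-treated cells stood for 24 h with the extract at 0.2 mg/mL before LPS, a bacterial cell wall component that activates macrophages, was given at 1 ng/mL for 17 h or 6 h, while control cells had the same LPS for 17 h or 6 h without BTEE. The comparisons asked which genes BTEE changed at each LPS time and how LPS time changed them in each kind of cell. What was added to control cells instead of the extract is not given in the sources used here, and the array dose lay above those for which the study states no cytotoxicity. Cells without LPS were not among these arrays, so time with LPS and time in culture cannot be told apart. Whether both arrays of a group are from different cultures is stated neither in the labels nor in the methods. The p-values therefore measure the spread between these arrays, which may be technical.

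In glycolysis, glucose taken up by transporters is phosphorylated by hexokinases, committed at the phosphofructokinase step and split and oxidised to pyruvate. Pyruvate is either reduced to lactate, which leaves the cell by monocarboxylate transporters, or carried into mitochondria, where pyruvate dehydrogenase feeds it to the TCA cycle. HIF1 is a transcription factor whose alpha subunit is hydroxylated and degraded when oxygen is present, and many glycolytic genes are its targets. In macrophages, LPS is known to raise HIF1 and glycolysis and to change the flow through the TCA cycle.

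The log2 signals are the deposited SST-RMA values, so a difference of 1 is a change by a factor of 2. Array medians were between 5.25 and 5.28. Over all probe sets, Pearson's r was 0.9984 to 0.9987 for arrays of the same group, 0.9942 to 0.9948 for the other groups of the same time and 0.9755 to 0.9799 for arrays of the other time. The 10 macrophage markers averaged a log2 signal of 15.57 to 15.58 per array in BTEE-treated cells and 15.62 to 15.63 in control cells at 17 h, and 15.12 in BTEE-treated cells and 15.45 to 15.47 in control cells at 6 h. Of them, 1 was higher and 2 were lower with BTEE at 17 h, and none was higher and 6 were lower at 6 h by limma, with none higher at an unadjusted p under 0.05. Over all symbols, 14.9% were higher and 13.6% lower at 17 h, and 14.5% higher and 15.7% lower at 6 h. All 10 markers had a negative log2 fold change at 6 h, with a median of -0.3675. Marker lists of B cells, T cells, neutrophils, fibroblasts and epithelial cells averaged 3.55 to 4.81 per array. The part of these differences in the results was not tested, and on bulk RNA fewer cells of a kind and less RNA per cell cannot be told apart. Sensory receptor genes, which macrophages are not known to use, read a median of 3.62, and 17.6% of 1457 such genes were called with BTEE at 17 h and 21.1% at 6 h.

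At 17 h of LPS, BTEE-treated cells had more transcript of the lactate exporter gene Slc16a3, of the phosphofructokinase gene Pfkl and of the mitochondrial genes Idh3a, Idh2, Fh1, Mpc2 and Pdha1 than control cells. They also had more of Mdh1, Ndrg1 and Egln3, and less of Hif1a, Pfkfb3, Bnip3 and Mpc1. In counts, 10 of the 42 genes rose, 4 fell and 28 did not pass the test, where rose and fell mean a Benjamini-Hochberg adjusted p under 0.05 over all 21154 symbols in limma. The 14 called genes were 33.3% of the set, against 28.5% of all symbols and 38.7% of the brighter symbols, those whose log2 signal averaged 6 or more. Among the 39 genes of the set in that range, 13 were called (33.3%). The brighter symbols were not matched to the set on signal, and the count alone says nothing particular of these genes. By direction, 14.9% of all symbols were higher and 13.6% lower. The median log2 fold change was 0.0625 over the 42 genes and 0.005 over all symbols. When the arrays were quantile normalized once more, 8 genes rose and 6 fell in place of 10 and 4. The count of 10 was 6 without BTEE array 1 of 17 h, 5 without BTEE array 2 or control array 1 and 4 without control array 2.

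At 6 h of LPS, BTEE-treated cells had more transcript of Idh1, Tpi1, Pdk1, Ldhb, Mpc1, Ldha, Bnip3 and Pfkp than control cells. They had less of Aldoc, Mpc2, Egln3, Pdha1, Pdk3 and Fh1. These were 8 genes that rose, 6 that fell and 28 that did not pass. The 14 called genes were again 33.3% of the set, against 30.2% of all symbols and 36.8% of the brighter symbols, and 12 of the 39 genes at that signal were called (30.8%). Of all symbols, 14.5% were higher and 15.7% lower. The median log2 fold change was 0.0125 over the 42 genes and -0.005 over all symbols. The 8 higher genes were 3 without BTEE array 1 or 2 or control array 1 of 6 h and 5 without control array 2, and the 6 lower genes were 2 without BTEE array 2 and 3 without control array 2.

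**Figure D1:**
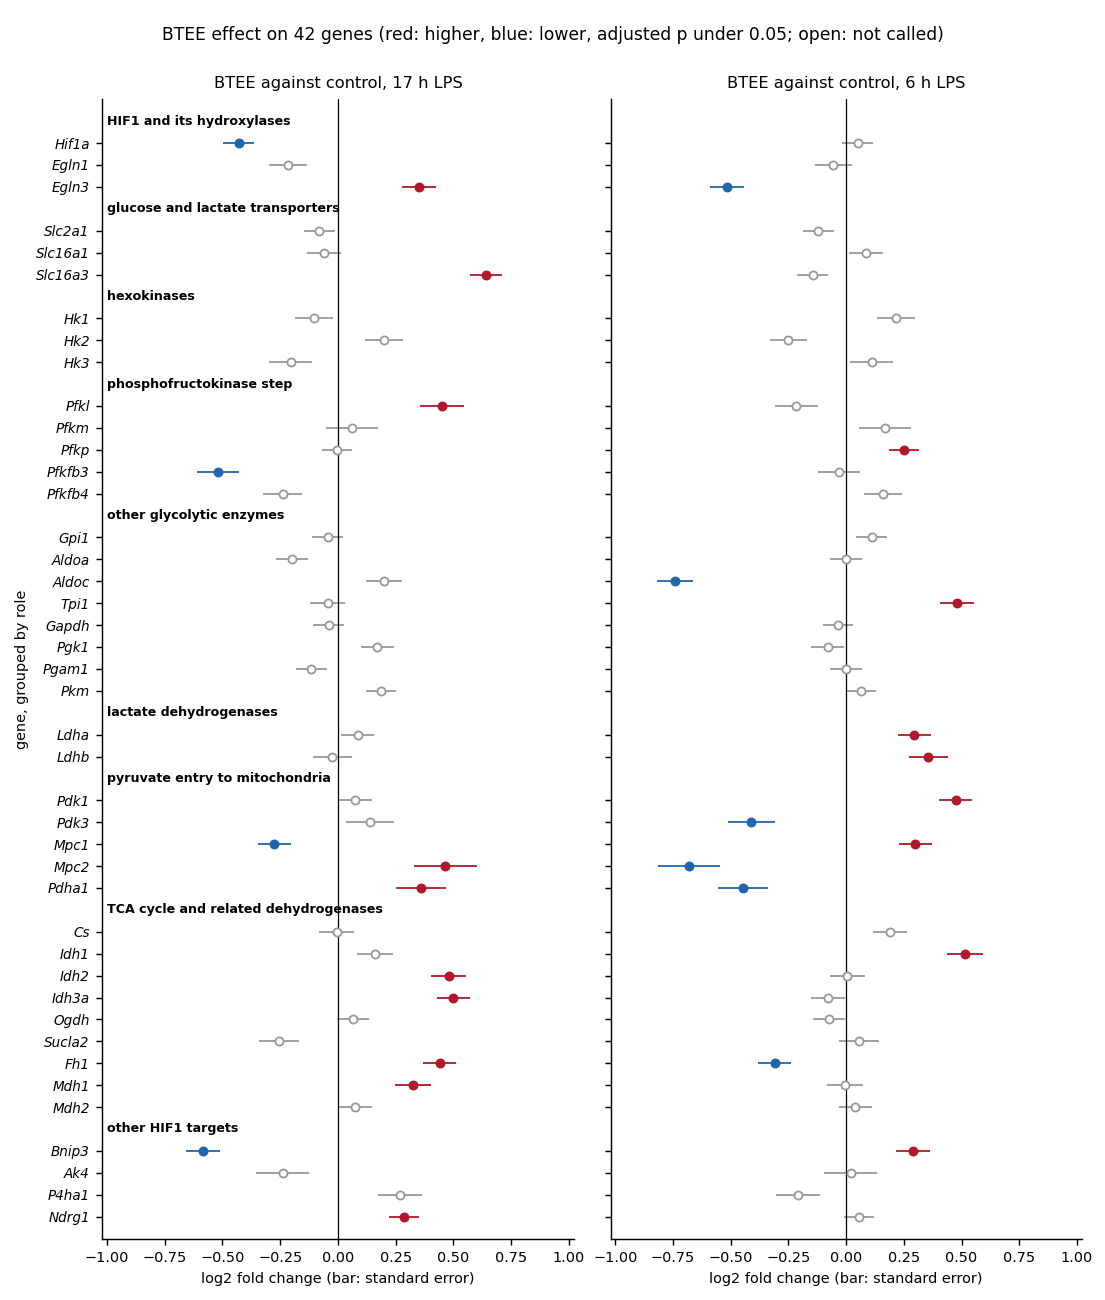
Log2 fold change of BTEE-treated against control cells for each of the 42 genes, grouped by role (rows), at 17 h (left) and 6 h of LPS (right). Points are limma estimates and bars their standard errors, filled red where a gene was higher and filled blue where it was lower at an adjusted p under 0.05 and open where it was not called. Slc16a3 had the highest value at 17 h, 0.64, and at 6 h Aldoc had the lowest value, -0.74.

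Most of these changes were small. At the thresholds of the study's methods, a fold over 1.5 with p under 0.05 before adjustment, Slc16a3 was higher and Bnip3 lower at 17 h, and Aldoc and Mpc2 were lower at 6 h. That is 2 of 42 genes at each time (4.76%), against 8.79% of all symbols at 17 h and 10.4% at 6 h. Bnip3 at 17 h lay at the threshold itself, with a fold of 1.5. When the variance of the sensory receptor genes' fold changes in the same comparison was added to each squared standard error, 0 of the 42 genes passed in either BTEE comparison. The arrays' own spread, on which the calls below rest, is therefore narrower than the spread of genes that these cells are not known to use. That spread was an SD of 0.36 at 17 h and 0.38 at 6 h, against largest absolute changes in the set of 0.64 and 0.74. With such a spread, changes of this size cannot pass. The sensory receptor genes read a median of 3.62, so the check does not give the error of the brighter genes of the set.

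Hif1a, the oxygen-regulated subunit of HIF1 (chr12:73901324-73947554, GRCm38), read 14.9 and 14.86 in BTEE-treated cells, against 15.31 and 15.31 in control cells, at 17 h. Its signal at 6 h was 13.89 and 13.9 in BTEE-treated cells, against 13.83 and 13.86 in control cells. The groups did not overlap at 17 h, where all BTEE arrays were below all control arrays. At 6 h all BTEE arrays were above the control arrays by a small margin. The log2 fold change was -0.43 at 17 h (SE 0.07, adjusted p = 0.0051) and 0.05 at 6 h (SE 0.07, adjusted p = 0.5967). The fall at 17 h was called with any 1 of the 8 arrays left out.

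Egln1 codes for the main prolyl hydroxylase that marks HIF1 alpha for degradation. It read 9.19 and 9.23 in BTEE-treated cells, against 9.36 and 9.49 in control cells, at 17 h, and 8.65 and 8.78 in BTEE-treated cells, against 8.76 and 8.78 in control cells, at 6 h. Its values were lower on both BTEE arrays at 17 h and overlapped at 6 h, and neither difference passed (log2 fold change -0.215, adjusted p = 0.0904, and -0.055, adjusted p = 0.6413).

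Egln3, a hydroxylase of the same family that is itself a HIF1 target, lay near the floor of the arrays. It read 3.76 and 3.81 in BTEE-treated cells, against 3.46 and 3.41 in control cells, at 17 h, and 3.4 and 3.37 in BTEE-treated cells, against 3.95 and 3.85 in control cells, at 6 h. The BTEE arrays were above the control arrays at 17 h and below them at 6 h, with log2 fold changes of 0.35 (adjusted p = 0.0135) and -0.515 (adjusted p = 0.0035). These calls depend on the probe set. A dimmer probe set annotated to Egln3 read 3.34 and 3.42 in BTEE-treated cells, against 3.36 and 3.05 in control cells, at 17 h, and 3.19 and 3.51 in BTEE-treated cells, against 2.53 and 3.12 in control cells, at 6 h. By its identifier the dimmer probe set lies on another chromosome than Egln3 and the brighter probe set, and whether it measures Egln3 was not tested. With the mean of both probe sets, Egln3 was called in no comparison, the difference between the times and the changes with LPS time included. The rise at 17 h was also lost without BTEE array 2 or without control array 1 or 2 of that time, with an adjusted p of up to 0.0721.

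Of the 3 transporters, 1 rose at 17 h and none was called at 6 h or at an unadjusted p under 0.05 there. Slc16a3, or MCT4, exports lactate from cells with high glycolysis (chr11:120948484-120959000). Its signal at 17 h was 12.39 and 12.43 in BTEE-treated cells, against 11.76 and 11.78 in control cells, and at 6 h it was 13.5 and 13.48 in BTEE-treated cells, against 13.67 and 13.6 in control cells. The 17 h groups were apart by more than 0.6 on every pair of arrays, and at 6 h both BTEE arrays were slightly lower. The log2 fold change was 0.64 at 17 h (SE 0.07, adjusted p = 0.0018), held with any 1 array left out, and -0.145 at 6 h (adjusted p = 0.1496).

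The glucose transporter gene Slc2a1, or GLUT1, read 16.83 and 16.88 in BTEE-treated cells, against 16.92 and 16.95 in control cells, at 17 h, and 16.31 and 16.29 in BTEE-treated cells, against 16.43 and 16.41 in control cells, at 6 h. Both BTEE arrays were below both control arrays at each time, by differences that did not pass (-0.08, 95% interval -0.24 to 0.08, and -0.12, 95% interval -0.28 to 0.04). Slc16a1, the lactate transporter MCT1, had -0.06 at 17 h and 0.085 at 6 h and was not called.

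No hexokinase gene was called in a BTEE comparison by limma, and at an unadjusted p under 0.05 Hk2 was higher at 17 h and lower at 6 h while Hk1 was higher at 6 h. Hk2, the inducible hexokinase bound to mitochondria, read 11 and 10.99 in BTEE-treated cells, against 10.88 and 10.71 in control cells, at 17 h, and 11.73 and 11.76 in BTEE-treated cells, against 11.96 and 12.03 in control cells, at 6 h. The arrays did not overlap at either time, with log2 fold changes of 0.2 (adjusted p = 0.1078) and -0.25 (adjusted p = 0.0557). Hk1 had -0.105 at 17 h and 0.215 at 6 h, and Hk3, found mainly in white blood cells, had -0.205 and 0.11 at the same times.

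At the phosphofructokinase step, the enzyme genes and the genes of its regulators did not move as a group. Pfkl, the liver-type phosphofructokinase that is also common in macrophages, read 11.81 and 11.85 in BTEE-treated cells, against 11.46 and 11.3 in control cells, at 17 h, and 11.23 and 11.13 in BTEE-treated cells, against 11.48 and 11.31 in control cells, at 6 h. The BTEE arrays were above the control arrays at 17 h and below them at 6 h. Pfkl rose by 0.45 at 17 h (SE 0.09, adjusted p = 0.0137), a call lost without BTEE array 2 or control array 2 of that time (adjusted p up to 0.0777), and had -0.215 at 6 h (adjusted p = 0.1245). Pfkp, the platelet-type enzyme, read 14.66 and 14.7 in BTEE-treated cells, against 14.67 and 14.7 in control cells, at 17 h, where the groups overlapped. At 6 h Pfkp read 14.23 and 14.24 in BTEE-treated cells, against 13.99 and 13.98 in control cells, and rose by 0.25 (adjusted p = 0.0288), a call lost without any 1 of the 4 arrays of that time (up to 0.1024). Pfkm, the muscle-type enzyme, had 0.06 at 17 h and 0.17 at 6 h and was not called.

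Pfkfb3 makes the sugar bisphosphate that activates phosphofructokinase (chr2:11471430-11554071). Its signal was 10.77 and 10.96 in BTEE-treated cells, against 11.45 and 11.32 in control cells, at 17 h, and 9.41 and 9.48 in BTEE-treated cells, against 9.48 and 9.47 in control cells, at 6 h. At 17 h both BTEE arrays lay below both control arrays, and at 6 h the arrays overlapped. The log2 fold change was -0.52 at 17 h (SE 0.09, adjusted p = 0.0074), held with any 1 array left out, and -0.03 at 6 h (adjusted p = 0.8291). Its relative Pfkfb4 had -0.24 at 17 h (adjusted p = 0.0685) and 0.16 at 6 h (adjusted p = 0.1821).

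Of the 8 other glycolytic enzyme genes, none was called at 17 h by limma, although 3 were higher and 1 lower at an unadjusted p under 0.05, and 1 rose and 1 fell at 6 h. Aldoc, an aldolase isoform best known from brain (chr11:78323073-78327781), read 12.55 and 12.64 in BTEE-treated cells, against 12.4 and 12.39 in control cells, at 17 h. At 6 h it read 12.01 and 12.13 in BTEE-treated cells, against 12.77 and 12.85 in control cells. The BTEE arrays were the highest of their time at 17 h and the lowest at 6 h. The fall at 6 h was -0.74 (SE 0.08, adjusted p = 0.0015), held with any 1 array left out, while the 17 h difference of 0.2 did not pass (adjusted p = 0.0992). Tpi1, triosephosphate isomerase, read 14.77 and 14.8 in BTEE-treated cells, against 14.78 and 14.88 in control cells, at 17 h, with overlap. At 6 h Tpi1 read 15.05 and 14.97 in BTEE-treated cells, against 14.56 and 14.5 in control cells, and rose by 0.48 (SE 0.08, adjusted p = 0.0049), also held with any 1 array left out.

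Of 9 other genes often used as references in RNA assays, 3 were higher and 1 lower with BTEE at 17 h (log2 fold changes of -0.495 to 0.795), none was called at 6 h by limma with 1 higher at an unadjusted p under 0.05, and 5 were lower at 17 h than at 6 h in each kind of cell (median -0.25 in both). Their part in the results was not tested. Gapdh, the dehydrogenase often used in the same way, read 18.25 and 18.26 in BTEE-treated cells, against 18.32 and 18.27 in control cells, at 17 h, and 18.13 and 18.15 in BTEE-treated cells, against 18.17 and 18.18 in control cells, at 6 h. All arrays of Gapdh lay within 0.2 of each other, and the log2 fold changes were -0.04 (95% interval -0.20 to 0.12) and -0.035 (95% interval -0.19 to 0.12). Pkm, pyruvate kinase, read 17.74 and 17.75 in BTEE-treated cells, against 17.55 and 17.57 in control cells, at 17 h, and 17.62 and 17.64 in BTEE-treated cells, against 17.57 and 17.56 in control cells, at 6 h. Its BTEE arrays were higher at each time, by 0.185 (adjusted p = 0.0728) and 0.065 (adjusted p = 0.4820), which did not pass. The 4 remaining genes, Gpi1, Aldoa, Pgk1 and Pgam1, had -0.045, -0.2, 0.17 and -0.115 at 17 h. At 6 h Gpi1 had 0.11, Aldoa 0, Pgk1 -0.08 and Pgam1 0.

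Both lactate dehydrogenase genes rose at 6 h, and neither was called at 17 h or passed an unadjusted p under 0.05 there. Ldha, the isoform that favours making lactate, read 17.18 and 17.19 in BTEE-treated cells, against 17.1 and 17.1 in control cells, at 17 h, and 17.34 and 17.33 in BTEE-treated cells, against 16.98 and 17.1 in control cells, at 6 h. The BTEE arrays were higher at each time, by 0.085 at 17 h (adjusted p = 0.4128) and 0.295 at 6 h (adjusted p = 0.0225). Ldhb, which read under 5 on all arrays, had -0.025 at 17 h and rose by 0.355 at 6 h (adjusted p = 0.0202). The 6 h call of Ldha was lost without either BTEE array or control array 1 of that time (adjusted p up to 0.1014), and that of Ldhb without any 1 of the 4 (up to 0.0885).

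Of the 5 genes of pyruvate entry into mitochondria, 2 rose, 1 fell and 2 did not pass at 17 h, and 2 rose and 3 fell at 6 h. The counts of this and the other groups by role are to be read against 28.5% of all symbols called at 17 h and 30.2% at 6 h. Mpc1 and Mpc2 code for the partner subunits of the mitochondrial pyruvate carrier. Mpc2 (chr1:165461260-165481218) read 8.96 and 9.07 in BTEE-treated cells, against 8.59 and 8.51 in control cells, at 17 h, and 9.29 and 8.96 in BTEE-treated cells, against 9.94 and 9.67 in control cells, at 6 h. Its BTEE arrays were above the control arrays at 17 h and below them at 6 h, and the effects were 0.465 in log2 (SE 0.14, adjusted p = 0.0410) at 17 h and -0.68 (SE 0.14, adjusted p = 0.0111) at 6 h. Mpc1 went the other way at both times, with -0.275 at 17 h (adjusted p = 0.0283) and 0.3 at 6 h (adjusted p = 0.0203). The calls of both genes were lost without any 1 of the 4 arrays at 17 h (adjusted p up to 0.1585 for Mpc2 and 0.1128 for Mpc1). At 6 h that of Mpc2 was lost without BTEE array 2 or control array 1 (up to 0.0540) and that of Mpc1 without either BTEE array or control array 1 (up to 0.0924).

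Pyruvate dehydrogenase is switched off by its kinases. Pdk1, the kinase known as a HIF1 target, read 11.11 and 11.16 in BTEE-treated cells, against 11.08 and 11.04 in control cells, at 17 h, and 11.33 and 11.32 in BTEE-treated cells, against 10.9 and 10.8 in control cells, at 6 h. The groups differed little at 17 h (0.075, adjusted p = 0.4676) and were well apart at 6 h, where Pdk1 rose by 0.475 (SE 0.07, adjusted p = 0.0044), held with any 1 array left out. Pdk3, another kinase, had 0.14 at 17 h and -0.41 at 6 h (adjusted p = 0.0247). Pdha1, which codes for the catalytic alpha subunit that the kinases act on, had 0.36 at 17 h (adjusted p = 0.0459) and -0.445 at 6 h (adjusted p = 0.0224). The 6 h calls of Pdk3 and Pdha1 were lost without either BTEE array or control array 2 of that time (adjusted p up to 0.1009 and 0.1042), and the 17 h call of Pdha1 without any 1 array of that time or either BTEE array at 6 h (up to 0.2107).

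Of the 9 genes of the TCA cycle and related dehydrogenases, 4 rose, none fell and 5 did not pass at 17 h, with 1 lower at an unadjusted p under 0.05, where 14.9% of all symbols were higher. Of the 9387 brighter symbols tested alone, 2754 were higher and 2208 lower at 17 h, so more rose than fell among bright genes in general. The 9 genes include Idh1 and Mdh1, whose enzymes lie in the cytosol. At 6 h 1 rose, 1 fell and 7 did not pass. Idh3a codes for the catalytic subunit of the NAD-dependent isocitrate dehydrogenase of the cycle. It read 14.38 and 14.43 in BTEE-treated cells, against 13.91 and 13.9 in control cells, at 17 h, and 14.19 and 14.31 in BTEE-treated cells, against 14.33 and 14.33 in control cells, at 6 h. The control arrays at 17 h were the lowest of the 8, and the rise with BTEE at that time was 0.5 (SE 0.07, adjusted p = 0.0043). Its 6 h change was -0.08 (adjusted p = 0.4408).

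Idh2, the mitochondrial NADP-dependent isocitrate dehydrogenase, read 12.1 and 12.19 in BTEE-treated cells, against 11.67 and 11.66 in control cells, at 17 h, and 12.44 and 12.43 in BTEE-treated cells, against 12.37 and 12.49 in control cells, at 6 h. The groups overlapped at 6 h only, and Idh2 rose by 0.48 at 17 h (SE 0.08, adjusted p = 0.0056). Idh1, its counterpart in the cytosol, read 13.38 and 13.3 in BTEE-treated cells, against 13.25 and 13.11 in control cells, at 17 h, and 13.39 and 13.39 in BTEE-treated cells, against 12.85 and 12.9 in control cells, at 6 h. Here it was the 6 h control arrays that were lowest, and Idh1 rose by 0.515 at 6 h (SE 0.08, adjusted p = 0.0045), against 0.16 at 17 h (adjusted p = 0.1701). The calls of Idh3a, Idh2 and Idh1 were held with any 1 array left out.

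Fh1, fumarase, read 12.15 and 12.17 in BTEE-treated cells, against 11.75 and 11.69 in control cells, at 17 h, and 12.15 and 12.06 in BTEE-treated cells, against 12.4 and 12.43 in control cells, at 6 h. It rose by 0.44 at 17 h (SE 0.07, adjusted p = 0.0060), held with any 1 array left out. At 6 h its change was -0.31 (adjusted p = 0.0183), a call lost without BTEE array 2 or either control array of that time (up to 0.0894). Mdh1, the malate dehydrogenase of the cytosol, rose by 0.325 at 17 h (adjusted p = 0.0215), lost without any 1 of the 4 arrays of that time (up to 0.0901), and had -0.005 at 6 h. Mdh2, its mitochondrial counterpart, read 15.2 and 15.25 in BTEE-treated cells, against 15.16 and 15.14 in control cells, at 17 h, and 15.51 and 15.51 in BTEE-treated cells, against 15.52 and 15.42 in control cells, at 6 h, and was not called at either time (0.075 and 0.04). Citrate synthase (Cs), Ogdh of the oxoglutarate dehydrogenase complex and Sucla2, a succinyl-CoA ligase subunit that read under 6 on all arrays, were not called, with -0.005, 0.065 and -0.255 at 17 h. At 6 h Cs had 0.19, Ogdh -0.075 and Sucla2 0.055.

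Among 4 further HIF1 targets, Bnip3, a protein of the outer mitochondrial membrane known for its part in the removal of mitochondria (chr7:138890836-138909506), read 10.42 and 10.44 in BTEE-treated cells, against 11.04 and 10.99 in control cells, at 17 h. Its 6 h values were 9.44 and 9.34 in BTEE-treated cells, against 9.13 and 9.07 in control cells. The BTEE arrays were the lower ones at 17 h and the higher ones at 6 h, with no overlap at either time. The log2 fold changes were -0.585 (SE 0.07, adjusted p = 0.0027), held with any 1 array left out, and 0.29 (SE 0.07, adjusted p = 0.0247), lost without any 1 of the 4 arrays at 6 h (up to 0.1150). Ndrg1 (chr15:66929318-66969641), a stress and hypoxia response gene, read 14.01 and 14 in BTEE-treated cells, against 13.73 and 13.71 in control cells, at 17 h, and 8.05 and 8.07 in BTEE-treated cells, against 8.01 and 8 in control cells, at 6 h. It rose by 0.285 at 17 h (adjusted p = 0.0186), a call lost without any 1 of the 4 arrays of that time (up to 0.0844), and had 0.055 at 6 h (adjusted p = 0.5543). The mitochondrial adenylate kinase gene Ak4 had -0.24 at 17 h and 0.02 at 6 h. P4ha1, a subunit of the collagen prolyl hydroxylase, had 0.27 and -0.21 at the same times, and neither gene was called.

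**Figure D2:**
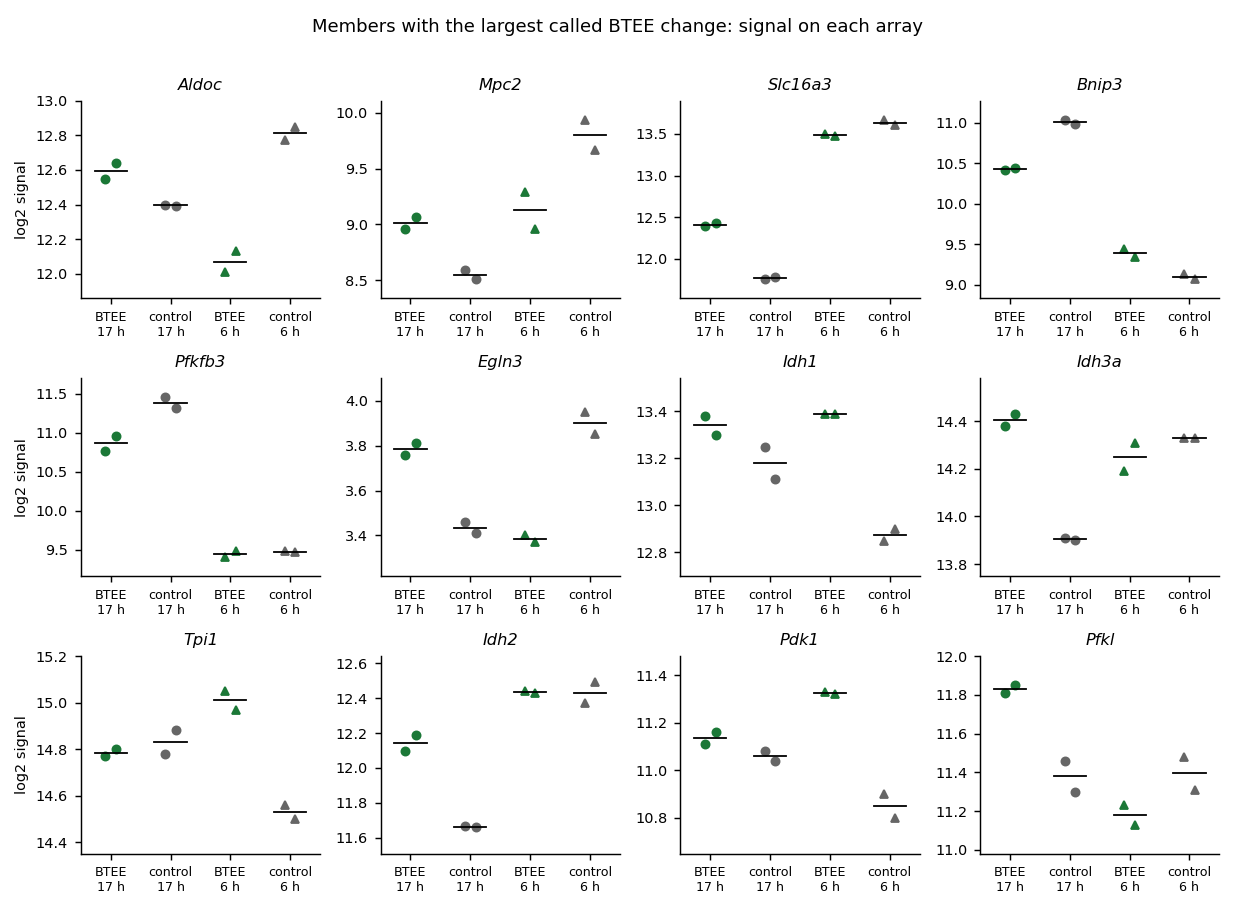
Log2 signal on each array (points) and group mean (line) for the 12 genes with the largest BTEE change among those called at either time. Groups run from left to right as BTEE 17 h, control 17 h, BTEE 6 h and control 6 h, and each vertical axis has its own range and does not start at 0. Slc16a3 with BTEE at 17 h lay at 12.39 and 12.43, above both control arrays, and Aldoc with BTEE at 6 h lay at 12.01 and 12.13, below both.

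Few genes of the set were called at both times. Of the 42, 20 were called at neither time, 8 at 17 h alone, 8 at 6 h alone and 6 at both. The 6 had opposite directions: Egln3, Mpc2, Pdha1 and Fh1 were higher with BTEE at 17 h and lower at 6 h, while Bnip3 and Mpc1 did the reverse. None of the 6 kept both calls with each array left out in turn. The number called at both times was then 1 without BTEE array 2 of 6 h, 2 without BTEE array 2 of 17 h, either control array of 17 h or control array 1 of 6 h, and 3 without each of the other arrays. With the mean of its probe sets Egln3 left the list and 5 genes stayed. Over all symbols, 2199 were called at both times and 1207 of them (54.9%) had opposite directions. The BTEE comparisons of the 2 times share no arrays.

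Whether the BTEE effect differed between the times was tested directly, as the effect at 17 h minus the effect at 6 h. This difference was called in 21 of the 42 genes, 12 with a higher and 9 with a lower effect at 17 h. That is 50.0% of the set, against 31.4% of all symbols, of which 16.7% were higher and 14.8% lower, and 40.5% of the brighter symbols. Of the 39 genes at that signal, 19 were called (48.7%). Mpc2 had the largest difference, 1.145 (SE 0.19, adjusted p = 0.0059), followed by Aldoc with 0.94 (adjusted p = 0.0021) and Bnip3 with -0.875 (adjusted p = 0.0021). Slc16a3 had 0.785 (adjusted p = 0.0024), Fh1 0.75 (adjusted p = 0.0030) and Hif1a -0.48 (adjusted p = 0.0098). All 5 genes of pyruvate entry were among the 21, with Mpc2, Pdha1 and Pdk3 higher and Mpc1 and Pdk1 lower. At the methods' thresholds, 8 of the 42 passed (19.0%), against 22.4% of all symbols. The set was thus above all symbols by the adjusted p and below them by the fold rule. The count alone says nothing particular of these genes. With any 1 array left out, 12 of the 21 calls held, and between 8 and 11 genes were higher and between 4 and 8 lower. The lower genes were 4 without BTEE array 1 or control array 1 of 17 h or BTEE array 2 of 6 h, and 5 without control array 2 of 17 h, BTEE array 1 of 6 h or control array 2 of 6 h.

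Between 6 h and 17 h of LPS most of the set changed in both kinds of cell. In BTEE-treated cells 17 genes were higher and 13 lower at 17 h than at 6 h, and in control cells 18 were higher and 16 lower. The 30 genes called in BTEE-treated cells were 71.4% of the set, against 47.6% of all symbols and 70.8% of the brighter symbols. In control cells the 34 called were 81.0%, against 52.3% of all symbols and 75.5% of the brighter symbols. Of the 39 genes of the set that were themselves that bright, 27 were called in BTEE-treated cells (69.2%) and 32 in control cells (82.1%). Of all symbols, 23.6% were higher and 24.0% lower in BTEE-treated cells, and 25.8% were higher and 26.4% lower in control cells. At a fold over 1.5 and an unadjusted p under 0.05, 13 genes passed in BTEE-treated cells, against 25.2% of all symbols, and 18 in control cells, against 29.7%. With 1 array left out, the counts were 16 to 17 higher and 9 to 13 lower in BTEE-treated cells, and 15 to 16 higher and 14 to 16 lower in control cells.

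**Figure D3:**
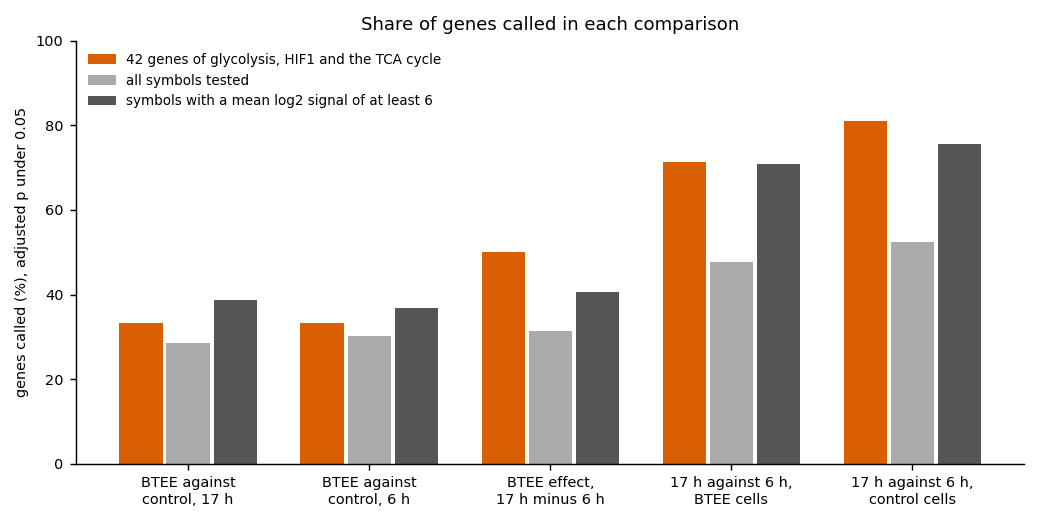
Share of genes called (vertical axis, in percent, adjusted p under 0.05) in each of the 5 comparisons. Bars stand for the 42 genes, for all 21154 symbols and for the brighter symbols. The set was at 33.3% in both BTEE comparisons, below the brighter symbols. In the difference between the times it was at 50.0%, against 31.4% of all symbols and 40.5% of the brighter symbols. Of the 39 genes of the set that were themselves that bright, 48.7% were called there.

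Ndrg1 had by far the largest change of the set. Its values with 17 h of LPS, 14.01 and 14 in BTEE-treated cells and 13.73 and 13.71 in control cells, lay above 8.05 and 8.07 in BTEE-treated cells and 8.01 and 8 in control cells with 6 h. The log2 fold change of 17 h against 6 h was 5.945 in BTEE-treated cells (SE 0.07, adjusted p = 3.92e-08) and 5.715 in control cells (SE 0.07, adjusted p = 3.92e-08). It ranked 3 from the top of all 21154 symbols in BTEE-treated cells and 5 from the top in control cells. Hk3 (chr13:55005985-55021475) read 11.35 and 11.27 in BTEE-treated cells and 11.52 and 11.51 in control cells at 17 h, and 9.26 and 9.3 in BTEE-treated cells and 9.29 and 9.05 in control cells at 6 h. Its change was 2.03 in BTEE-treated cells and 2.345 in control cells, and for neither Hk3 nor Ndrg1 was the difference between the cells called (adjusted p = 0.1115 and 0.0984).

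Hif1a was higher at 17 h by 0.985 in BTEE-treated cells (adjusted p = 2.01e-05) and by 1.465 in control cells (adjusted p = 2.33e-06). Bnip3 followed with 1.04 in BTEE-treated cells and 1.915 in control cells, and Pfkfb3 with 1.42 and 1.91 in the same order. In each of these 3 genes the change was smaller in BTEE-treated cells, by -0.48, -0.875 and -0.49. Slc16a3 was lower at 17 h, with -1.08 in BTEE-treated cells and -1.865 in control cells, and its change too was smaller with BTEE. Hk2 had -0.75 in BTEE-treated cells and -1.2 in control cells, and Pdk3 had -0.73 in BTEE-treated cells and -1.28 in control cells. Pfkfb4 went further with BTEE, to -1.155, against -0.755 in control cells.

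**Figure D4:**
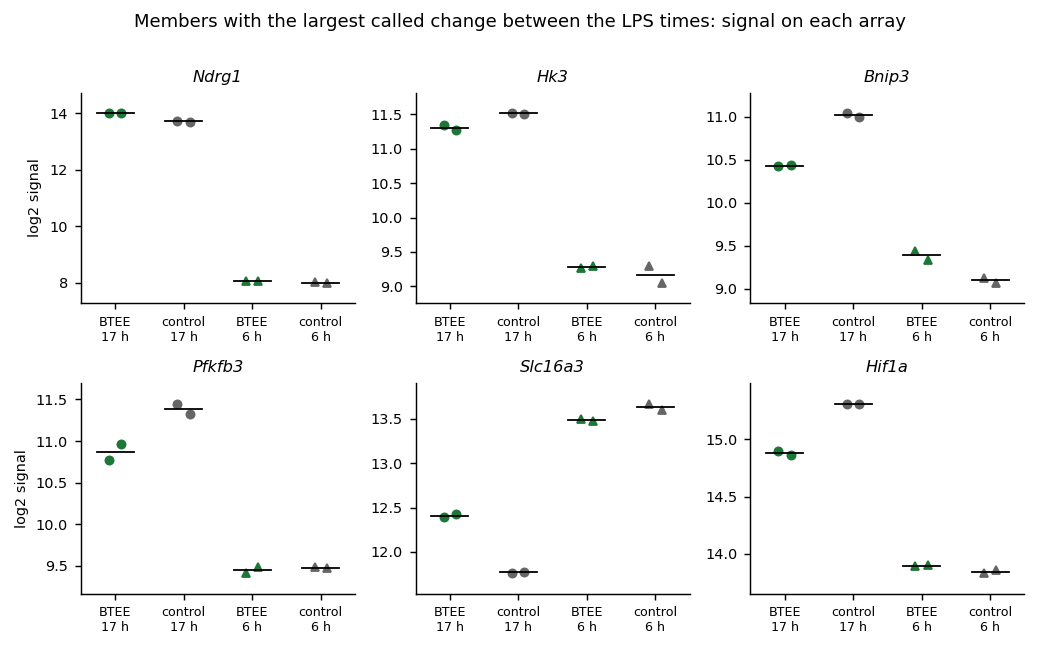
Log2 signal on each array (points) and group mean (line) for the 6 genes with the largest called change between the LPS times, with groups ordered as BTEE 17 h, control 17 h, BTEE 6 h and control 6 h and a separate vertical range per gene. Ndrg1 lay between 13.71 and 14.01 at 17 h, against 8 to 8.07 at 6 h, and Slc16a3 was lower on all 4 arrays at 17 h.

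In the 21 genes where the BTEE effect differed between the times, the same test says that the change with LPS time differed between the cells. In absolute size, whatever its direction, that change was smaller in BTEE-treated cells in 16 of the 21 (76.2%) and larger in 5. Over all symbols with such a call it was smaller in 4046 of 6651 (60.8%). The sizes were compared as they stand, without a test of their difference, and in some genes, such as Pdk1 and Egln3, they were close. The split by size therefore says nothing particular of the set. Of the 16, 9 changed in the same direction in both kinds of cell and 7 in opposite directions, among them Egln3 (0.4 in BTEE-treated cells and -0.465 in control cells) and Pdk1 (-0.19 and 0.21 in the same order), and 9 of the 21 calls were lost with 1 array left out. Mpc2 changed in the same direction in both, with -0.11 in BTEE-treated cells (adjusted p = 0.5380) and -1.255 in control cells (adjusted p = 1.85e-04). Of the 42 genes, 26 were called between the times in both kinds of cell, 14 higher in both, 8 lower in both and 4 in opposite directions. Of all 21154 symbols, 6969 were called in both kinds of cell. The share with opposite directions was 12.5% of these and 15.4% of the 26, so the split by direction says nothing particular of the set. Egln3 and Aldoc were higher at 17 h in BTEE-treated cells and lower in control cells, and Tpi1 and Mpc1 were lower in BTEE-treated cells and higher in control cells. Gapdh, Ldha, Pkm and Pfkm were called in neither. The call of Mpc1 in control cells, with 0.2 and an adjusted p of 0.0494, and that of Tpi1 in BTEE-treated cells, with -0.225 and 0.0427, were each lost with any 1 of the 8 arrays left out (adjusted p up to 0.2062 and 0.1751). That of Tpi1 in control cells was lost without control array 2 of either time (up to 0.0747), and the calls of Egln3 depend on its probe set. With any 1 array left out, 24 of the 30 calls in BTEE-treated cells and 28 of the 34 in control cells held.

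**Figure D5:**
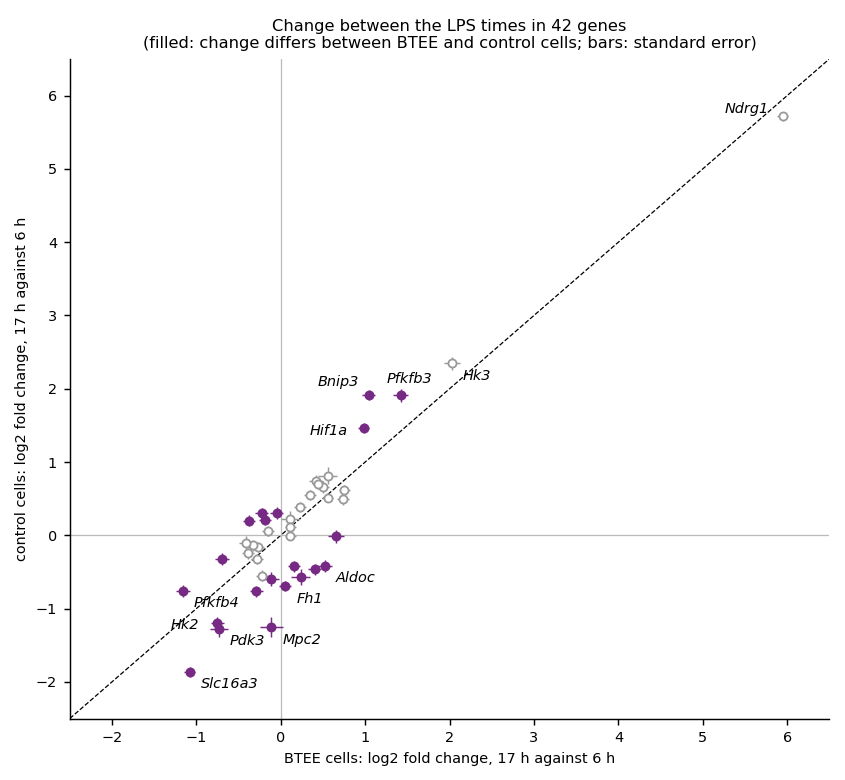
Log2 fold change of 17 h against 6 h of LPS in BTEE-treated cells (horizontal axis) and in control cells (vertical axis) for the 42 genes, with standard errors as bars and equal change on the dashed line. The 21 filled points are genes whose change differed between the cells at an adjusted p under 0.05. Ndrg1 lies at 5.945 and 5.715, and Slc16a3 at -1.08 and -1.865.

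Further genes of the same pathways were taken from lists of 99 other genes. Of 26 genes of glycolysis and sugar entry, 7 rose and 4 fell with BTEE at 17 h, and 3 rose and 3 fell at 6 h. Those with the largest change were all dim, with no array above 7: the testis isoform Pgk2 rose by 0.885 at 17 h (adjusted p = 0.0031), Gpd1, a glycerol-phosphate dehydrogenase, had -0.85 (adjusted p = 0.0014), and the muscle enolase Eno3 rose by 0.745 (adjusted p = 0.0016). At 6 h Pgk2 had 0.295 (adjusted p = 0.0938), Gpd1 0.335 (adjusted p = 0.0222) and Eno3 -0.37 (adjusted p = 0.0121).

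Of 28 other genes of the HIF pathway and hypoxia response, 6 rose and 8 fell at 17 h, and 4 rose and 7 fell at 6 h. Mif, a cytokine that HIF1 is known to induce, read 15.34 and 15.33 in BTEE-treated cells, against 14.66 and 14.68 in control cells, at 17 h, and 15.38 and 15.51 in BTEE-treated cells, against 16.08 and 15.99 in control cells, at 6 h. It rose by 0.665 at 17 h (adjusted p = 0.0023) and had -0.59 at 6 h (adjusted p = 0.0028), and the 2 effects differed by 1.255 (adjusted p = 0.0012). Arnt2, a partner subunit of HIF proteins known mainly from neurons and low on these arrays, had -0.83 at 17 h (adjusted p = 0.0020) and -0.08 at 6 h. Car12, a carbonic anhydrase of the cell surface, rose by 0.63 at 17 h (adjusted p = 0.0047) and by 0.455 at 6 h (adjusted p = 0.0131).

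In the 21 other genes of pyruvate dehydrogenase and the TCA cycle, 8 rose and 1 fell at 17 h, and 3 rose and 2 fell at 6 h. Sdhd, a membrane anchor of succinate dehydrogenase, read 12.79 and 12.91 in BTEE-treated cells, against 12.02 and 12.24 in control cells, at 17 h, and 13.43 and 13.43 in BTEE-treated cells, against 13.66 and 13.61 in control cells, at 6 h. It rose by 0.72 at 17 h (adjusted p = 0.0030) and had -0.205 at 6 h (adjusted p = 0.1385). Pcx, pyruvate carboxylase, which read under 5 on all arrays, had -0.84 at 6 h (adjusted p = 0.0017) and -0.245 at 17 h (adjusted p = 0.0902). Pdp2, a phosphatase that reactivates pyruvate dehydrogenase, was also dim, between 5.29 and 6.34. It had -0.215 at 17 h and -0.555 at 6 h (adjusted p = 0.0125).

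Of 16 genes that feed, drain or carry TCA intermediates, 2 rose and 2 fell at 17 h, and none rose by limma (1 higher at an unadjusted p under 0.05) and 4 fell at 6 h. Got1, the aspartate aminotransferase of the cytosol, rose by 0.58 at 17 h (adjusted p = 0.0028) and had -0.385 at 6 h (adjusted p = 0.0096). Pck2, the mitochondrial phosphoenolpyruvate carboxykinase, rose by 0.605 at 17 h (adjusted p = 0.0322), with -0.44 at 6 h, and Me3, a mitochondrial malic enzyme near the floor of the arrays, had 0.245 at 17 h and -0.7 at 6 h (adjusted p = 0.0193). Of 8 genes of the pentose phosphate pathway, which branches from glycolysis to make NADPH, 2 rose and none fell at 17 h by limma (1 lower at an unadjusted p under 0.05), and 1 rose and 3 fell at 6 h. Pgls rose by 0.58 at 17 h (adjusted p = 0.0035) with -0.515 at 6 h (adjusted p = 0.0046), and Taldo1 rose by 0.545 (adjusted p = 0.0052) with -0.27 (adjusted p = 0.0490). Shpk, a kinase of sedoheptulose that read under 6 on all arrays, had -0.2 at 17 h and -0.77 at 6 h (adjusted p = 0.0086). The shares called in these lists are to be read against 28.5% of all symbols at 17 h and 30.2% at 6 h.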

How the data were processed

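RNA of RAW264 cells was hybridised to 8 Clariom S mouse arrays, 2 in each of 4 groups taken from the sample titles. The deposited log2 signals had been normalized by the authors with the SST-RMA algorithm in the Transcriptome Analysis Console. The series text and the methods name different versions of that program. Raw scans were not used here, so the background correction could not be varied, and the number of arrays limits the precision.

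The authors' tables for the BTEE comparisons gave the gene symbols. Their group averages in log2 served only to check the match of probe sets, and the largest difference was 0.005. Their fold changes, p-values and false discovery rates were not used. Of 22206 probe sets, 21367 had 1 symbol, 836 several and 3 none. Each of 21154 symbols was tested on its brightest probe set over the 8 arrays. Positions are those of RefSeq for GRCm38.p6, where 42 genes were found.

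limma 3.58.1 (R 4.3.3) was run on the log2 signals with a mean for each group, 4 residual degrees of freedom and 3.12 prior degrees of freedom, and p-values were adjusted by Benjamini-Hochberg over all symbols. An exact permutation test of 2 arrays against 2 cannot go below a two-sided p of 0.333. On data simulated for BTEE against control at 6 h over 21154 genes with 200 changed, the fit recovered 68% of changes by a factor of 1.5, 94% of those by 2 and 100% of those by 4 or 8. The simulated noise was independent on each array, and far fewer symbols were changed than the 6380 called at 6 h. These rates check the fit and do not give its power on the real arrays.

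Array values were printed for up to 12 genes with the largest absolute log2 fold change among those called in a BTEE comparison, for 12 genes named whatever their values, for up to 6 genes with the largest change between the LPS times, and for Fh1, Mif and Sdhd, picked after their values were seen. From each wider list up to 3 called genes with the largest change were named. The genes and lists were chosen with earlier results of these data known. Arrays with equal replicate numbers showed no common shift from their group means, so no replicate term was used in the main fit. Alternatives were another normalization, prior, error, filter, probe set rule, call rule or set of arrays, and leaving out each array.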

Additional observations from a re-analysis of the deposited data

Results flagged for a closer look

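In 21 of the 42 genes the effect of BTEE at 17 h differed from that at 6 h by the test of the difference itself (limma, adjusted p under 0.05 over all symbols). That was 50.0% of the set, against 31.4% of all symbols and 40.5% of the brighter symbols. Differences are in log2, the effect at 17 h minus the effect at 6 h. Among the genes of pyruvate entry, Mpc2 differed by 1.145, Pdha1 by 0.805, Mpc1 by -0.575, Pdk3 by 0.55 and Pdk1 by -0.4. For the TCA cycle and related dehydrogenases, Fh1 differed by 0.75, Idh3a by 0.58, Idh2 by 0.475 and Idh1, whose enzyme lies in the cytosol, by -0.355. In glycolysis, Aldoc differed by 0.94, Pfkl by 0.665, Tpi1 by -0.525, Pfkfb3 by -0.49, Hk2 by 0.45, Pfkfb4 by -0.4 and Ldhb by -0.38, and the lactate exporter gene Slc16a3 by 0.785. Of HIF1, its hydroxylases and its targets, Bnip3 differed by -0.875, Egln3 by 0.865, Hif1a by -0.48 and P4ha1 by 0.48.

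With 1 array left out, 9 of these 21 calls were lost: those of Hk2 (adjusted p up to 0.0714), Pfkfb3 (0.0846), Pfkfb4 (0.1068), Ldhb (0.1347), Pdk1 (0.0736), Pdk3 (0.0848), P4ha1 (0.0930) and Idh1 (0.1341), and that of Idh2 without control array 2 at 17 h (0.0505). The value of Egln3 comes from the brighter of its probe sets, and its call was lost with the mean of both.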

How the results depend on the processing

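Counts of the 42 genes are given as higher and lower. At the methods' thresholds (a fold over 1.5 with p under 0.05 before adjustment) they were 1 and 1 for BTEE at 17 h, 0 and 2 for BTEE at 6 h, 7 and 1 for the difference between the times, 8 and 5 for 17 h against 6 h in BTEE-treated cells, and 10 and 8 in control cells. When errors were widened by the spread of sensory receptor genes they were 0 and 0 in both BTEE comparisons and in the difference, 3 and 2 between the times in BTEE-treated cells, and 5 and 4 in control cells. Sensory receptor genes lie near the floor of the arrays, so this check does not give the error of brighter genes. Testing only the brighter symbols (log2 signal averaging 6 or more) gave 14 and 7 of 39 genes at 17 h, against 2754 and 2208 of all 9387 such symbols. The 4 arrays of 6 h alone gave 4 and 4 with BTEE. A prior with trend and robust estimation gave 15 and 6 at 17 h, 10 and 11 at 6 h, and 16 and 15 in the difference. The counts over all symbols under that prior are not given here, so these say nothing particular of the set.

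With 1 array left out, the BTEE counts were 4 to 10 higher and 3 to 4 lower at 17 h, 3 to 8 higher and 2 to 6 lower at 6 h, and 8 to 11 higher and 4 to 8 lower in the difference. With the mean of its probe sets, Egln3 at 6 h was 0.005 in place of -0.515. No other called value changed direction under an alternative. Arrays of equal number deviated from their group means with correlations of -0.001 to 0.02, which shows no common shift of such arrays over all symbols. Whether they share a culture or a preparation is not stated. With the replicate block the counts were 9 and 4 at 17 h, 8 and 6 at 6 h, and 11 and 8 in the difference. The causes of these changes were not tested.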
